A study of Mus musculus with 2 samples.

Results

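Zinc finger genes with the symbols Zfp900 to Zfp999 were examined in open chromatin of mouse neural tube, from which the brain and the spinal cord form. The group was defined by name alone, as the protein-coding genes of the GENCODE vM21 annotation whose symbol is Zfp followed by 3 digits of which the first is 9. It held 63 of 21938 protein-coding genes, and another 328 genes with Zfp symbols served for comparison. DNase-seq, which sequences the ends of fragments cut by DNase I from accessible DNA, was run on neural tube of B6NCrl embryos at 11.5 days of development, with both sexes pooled. The labels give 1 group with 2 biological replicates, which carry the same donor label, and no treatment or mutant allele. Replicate 2 was sequenced on an additional model of sequencer. A single group of 2 libraries allows no test across samples, and all comparisons below are descriptions.

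Most genes of this series encode C2H2 zinc finger proteins, in which each finger folds around a zinc ion and rows of fingers read DNA sequence. Many also carry a KRAB domain, which recruits the corepressor TRIM28 and, through it, the histone methyltransferase SETDB1, and such proteins are best known for silencing transposable elements. These genes multiply by tandem duplication, and they therefore often lie in clusters of near copies. The clusters at the distal ends of mouse chromosomes 2 and 4 are rodent-specific expansions of this kind. In the longest coding sequence of each gene, translated from the genome, a median of 11 fingers was found, with a range of 0 to 21. Zfp974 had the 21 fingers and Zfp935, Zfp957 and Zfp972 had 0.

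The deposited lists held 199653 peaks in replicate 1 and 154324 in replicate 2, each 150 bp long, and the depth of sequencing is unknown. All 8 neural progenitor and all 8 neuron marker genes had a promoter peak in both libraries, as did 6 of 6 mesoderm and 4 of 6 endothelial markers. Of the blood markers, 1 of 8 erythroid and 0 of 6 myeloid genes had one. Neural crest markers had one in 6 and 5 of 6 cases and liver markers in 2 and 0 of 6. Over all protein-coding genes the share was 67.6% in both libraries, 69.6% in replicate 1 and 68.8% in replicate 2. In whole tissue, accessibility in few cells and weak accessibility in many cells cannot be told apart.

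A peak was counted as a promoter peak when it overlapped the 500 bp to either side of a transcription start site (TSS) of the gene. Since the score of a peak has no stated scale, it was converted into a percentile within its own list, called rank here, in which 100 is the highest score. The upstream sequences of genes on which the results turn are shown first. They are the 250 bases before the RefSeq gene start in the GRCm38.p6 assembly, 5′ to 3′ on the strand of the gene. The capitals mark the word CCAATCA, bound by the CCAAT-box factor NFY, and the word CTGCCAGTCAGA, which was found by its frequency in these promoters.

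The first sequence is that of the highest-ranking promoter, Zfp964 (chr8:69654306-69654555, plus strand), and the next ones are near copies from distal chromosome 2. Zfp971 (chr2:178023034-178023283, plus strand) had promoter peaks in both libraries, and Zfp970 (chr2:177464492-177464741, plus strand) in replicate 1 only. Zfp965 (chr2:175469775-175470024, plus strand) and Zfp967 (chr2:176520754-176521003, plus strand) had none.
Zfp964: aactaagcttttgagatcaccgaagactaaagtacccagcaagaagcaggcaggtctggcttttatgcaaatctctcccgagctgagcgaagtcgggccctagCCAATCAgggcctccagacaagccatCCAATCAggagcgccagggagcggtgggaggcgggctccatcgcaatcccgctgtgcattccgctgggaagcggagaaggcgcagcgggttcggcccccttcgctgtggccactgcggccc
Zfp971: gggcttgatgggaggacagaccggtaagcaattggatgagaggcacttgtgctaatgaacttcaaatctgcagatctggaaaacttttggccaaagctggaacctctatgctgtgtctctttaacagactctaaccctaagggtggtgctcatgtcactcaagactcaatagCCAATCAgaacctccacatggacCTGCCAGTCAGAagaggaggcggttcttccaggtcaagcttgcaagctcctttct
Zfp970: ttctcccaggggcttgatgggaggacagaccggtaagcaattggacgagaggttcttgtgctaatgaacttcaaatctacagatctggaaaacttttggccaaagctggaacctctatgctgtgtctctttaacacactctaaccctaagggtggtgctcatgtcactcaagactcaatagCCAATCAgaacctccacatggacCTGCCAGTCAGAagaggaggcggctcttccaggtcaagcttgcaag
Zfp965: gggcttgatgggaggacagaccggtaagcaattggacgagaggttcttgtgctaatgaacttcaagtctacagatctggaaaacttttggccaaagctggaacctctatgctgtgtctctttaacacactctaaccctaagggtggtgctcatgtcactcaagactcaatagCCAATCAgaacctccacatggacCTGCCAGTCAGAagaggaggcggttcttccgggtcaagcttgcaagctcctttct
Zfp967: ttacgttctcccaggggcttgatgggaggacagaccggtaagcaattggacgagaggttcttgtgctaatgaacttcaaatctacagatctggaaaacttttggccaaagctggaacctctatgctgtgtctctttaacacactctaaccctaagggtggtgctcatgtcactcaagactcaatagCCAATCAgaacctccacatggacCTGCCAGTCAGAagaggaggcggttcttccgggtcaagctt

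From chromosome 7, Zfp976 (chr7:42642605-42642854, minus strand) had promoter peaks in both libraries, whereas its neighbour Zfp977 (chr7:42592546-42592795, minus strand) had none. From distal chromosome 4, Zfp933 (chr4:147848419-147848668, minus strand) had a high-ranking and Zfp988 (chr4:147305354-147305603, plus strand) a low-ranking promoter peak, and neither holds a marked word.
Zfp976: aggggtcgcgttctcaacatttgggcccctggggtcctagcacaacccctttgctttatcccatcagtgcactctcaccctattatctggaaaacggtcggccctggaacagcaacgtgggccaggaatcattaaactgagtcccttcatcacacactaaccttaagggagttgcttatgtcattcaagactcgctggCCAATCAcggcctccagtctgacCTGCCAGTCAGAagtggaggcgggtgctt
Zfp977: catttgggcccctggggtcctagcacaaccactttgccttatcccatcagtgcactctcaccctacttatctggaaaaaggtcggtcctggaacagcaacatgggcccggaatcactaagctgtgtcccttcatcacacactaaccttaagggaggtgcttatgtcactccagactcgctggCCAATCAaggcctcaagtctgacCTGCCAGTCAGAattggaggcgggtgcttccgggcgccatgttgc
Zfp933: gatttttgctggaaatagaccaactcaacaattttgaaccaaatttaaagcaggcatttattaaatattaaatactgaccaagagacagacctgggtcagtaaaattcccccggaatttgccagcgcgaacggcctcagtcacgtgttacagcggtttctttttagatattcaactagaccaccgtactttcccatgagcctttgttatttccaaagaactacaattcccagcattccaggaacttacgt
Zfp988: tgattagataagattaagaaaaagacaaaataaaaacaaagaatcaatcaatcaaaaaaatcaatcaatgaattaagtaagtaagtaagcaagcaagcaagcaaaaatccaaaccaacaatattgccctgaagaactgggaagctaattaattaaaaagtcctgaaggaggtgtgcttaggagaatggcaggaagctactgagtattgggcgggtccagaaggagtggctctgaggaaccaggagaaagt

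Both libraries had a promoter peak at 37 of the 63 genes, or 58.7%, against 67.6% of all protein-coding genes. Each library alone had one at 38 genes, or 60.3%, against 69.6% of all genes in replicate 1 and 68.8% in replicate 2. The share among the other Zfp genes was higher, with 307 of 328 in both libraries, or 93.6%. Zfp970 had a promoter peak in replicate 1 only and Zfp982 in replicate 2 only, and 24 genes had none in either library. Broader hotspots gave the same 37 genes, and of the promoter peaks of these 37 genes 75 of 87 in replicate 1 and 76 of 82 in replicate 2 overlapped a peak of the other library.

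Genes without a promoter peak lay mostly in 2 loci. At distal chromosome 2, where 10 of the genes span 2.71 Mb, only Zfp971 had a promoter peak in both libraries. At distal chromosome 4, where 16 genes span 2.34 Mb, Zfp933, Zfp984 and Zfp988 had one in both. At proximal chromosome 17 all 10 genes had one, and on chromosome 7, between Zfp977 and Zfp936, 2 of 4 did. Of the 23 genes elsewhere 21 had one, the exceptions being Zfp932 on chromosome 5, known to repress endogenous retroviruses in embryonic stem cells, and Zfp957 on chromosome 14. Neighbouring zinc finger genes with Gm symbols at distal chromosome 2 were also rarely marked, with 1 of 12 in the run that starts at Zfp968 and 3 of 15 in the run that starts at Zfp967.

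**Figure D1:**
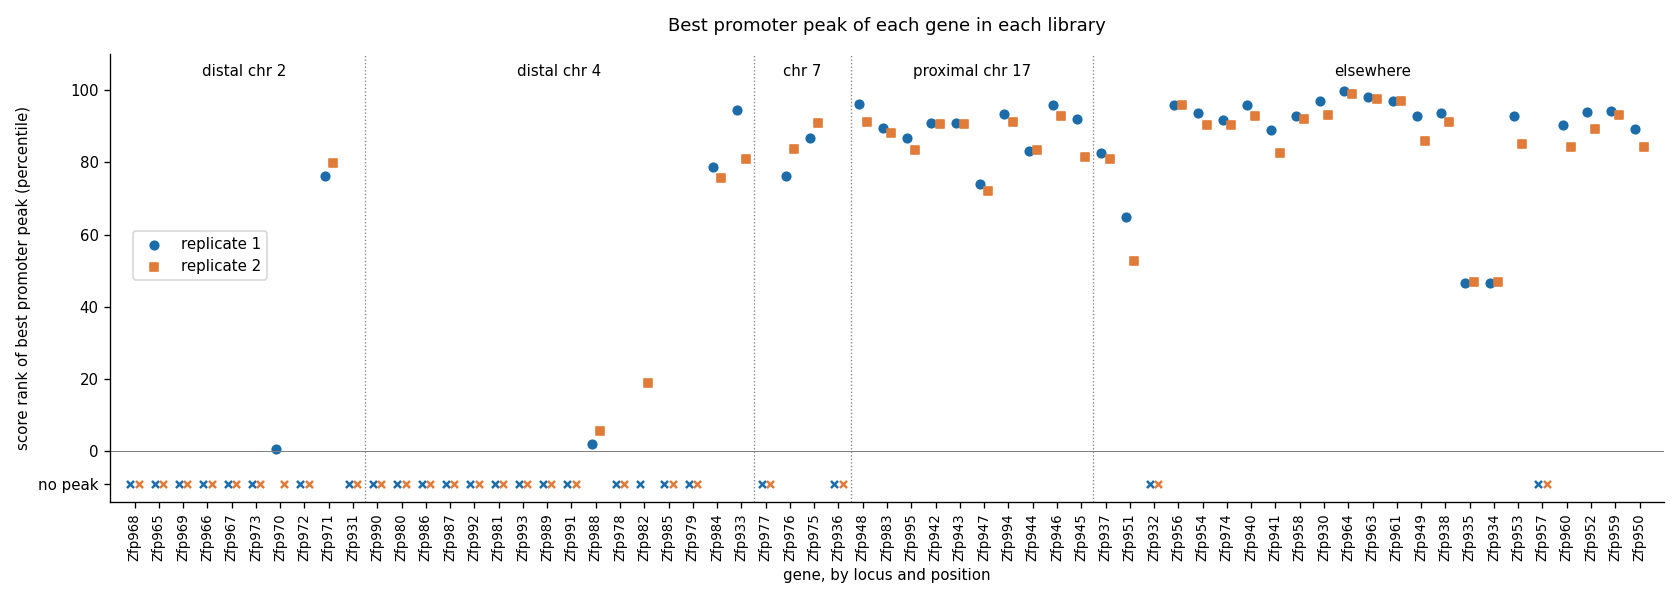
Score rank of the best promoter peak (percentile within the list, vertical axis) of each of the 63 genes (horizontal axis, by locus and position) in replicate 1 (circles) and replicate 2 (squares), with crosses for genes without a promoter peak. Crosses fill most of distal chromosomes 2 and 4, while all 10 genes of proximal chromosome 17 have a peak in both libraries.

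The promoter windows of these genes consist largely of repeated sequence. The repeat share, which is the percentage of 30-base words in the window that occur more than once in the genome, had a median of 52.7%, against 1.65% over all genes and 2.04% over the other Zfp genes. It exceeded 50% in 35 of the 63 genes. The median was 28.9% in genes with a peak in both libraries and 92.3% in those with none, against 1.03% and 7.54% over all genes. Of the 24 genes with none, 20 lay at distal chromosomes 2 and 4. Below a repeat share of 25% the promoter was marked in both libraries at 17 of 18 genes, with Zfp957 the exception, and from 25% to below 50% at 7 of 10. It was marked at 10 of 15 from 50% to below 75%, at 3 of 6 from 75% to below 90%, and at 0 of 14 from 90% upwards. Over all protein-coding genes the share marked in both libraries was 74.5%, 24.8%, 18.5%, 10.1% and 0.609% in these bins. Among the other Zfp genes it was 96.3% of 294, 95.2% of 21, 66.7% of 6, 0 of 3 and 0 of 4. In most bins the series was thus nearer to the other Zfp genes than to all genes. The sources used here do not give how reads from repeated sequence were handled, so a closed promoter and one whose reads could not be placed cannot be told apart.

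**Figure D2:**
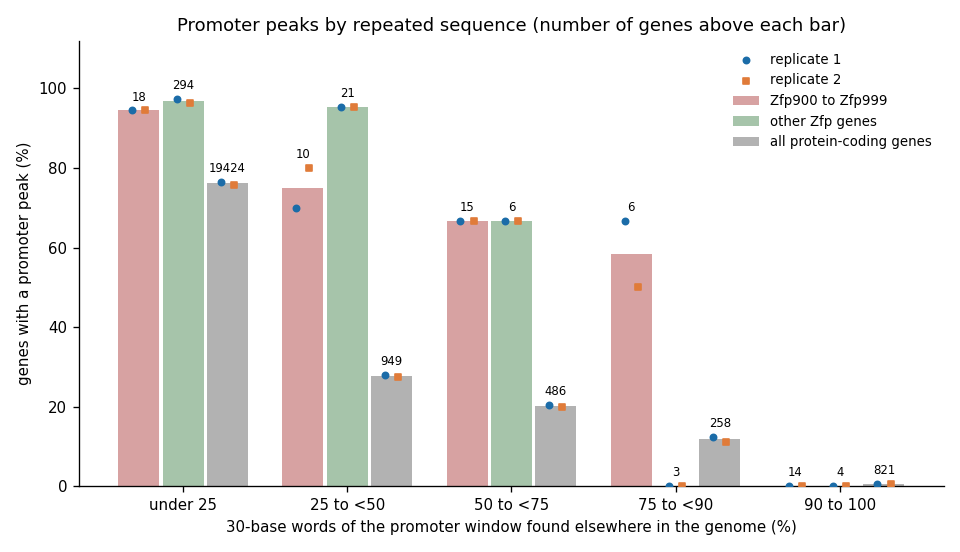
Percentage of genes with a promoter peak (vertical axis, bars from 0) by the repeat share of the promoter window (horizontal axis, in %) for the 63 genes, the other Zfp genes and all protein-coding genes. Bars are means over the libraries and points the libraries themselves, and in all 3 sets the bar at 90 to 100 is at or near 0.

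At distal chromosome 2 near copies of a promoter differed in their peaks. The upstream sequences of Zfp965 and Zfp967 printed above occur 3 and 5 times in the genome as exact copies, and that of Zfp970 occurs 2 times, whereas that of Zfp971 occurs once only. Their 300-base RefSeq promoters, which add 50 bases after the start, were 97.0% identical between Zfp971 and Zfp965 and 91.9% between Zfp971 and Zfp970. Those of Zfp966 and Zfp967 were 100% identical. Zfp971, at a repeat share of 72.1%, had 3 promoter peaks in each library. The best, with ranks of 76.3 and 79.9, lay at chr2:178023416-178023565 in both lists, 111 bp after the nearest of its 2 TSSs. This is beyond the printed sequence and the 300-base promoter. The peaks over the printed sequence, at -114 and -74 bp, had ranks of 60.4 and 66.0. The peak of Zfp970 had a rank of 0.57 and lay 424 bp after the nearest TSS, also beyond the printed sequence. The other 8 genes of this locus, Zfp931, Zfp965, Zfp966, Zfp967, Zfp968, Zfp969, Zfp972 and Zfp973, had none, at repeat shares of 80.3% (Zfp972) to 100%.

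At distal chromosome 4 the picture was mixed. Zfp933, the last gene of the locus, has a repeat share of 0.72%, and its best peaks had ranks of 94.4 and 81.0. They lay at different positions, -104 and 136 bp from the TSS. The peak of replicate 2 that overlaps the best of replicate 1 had a rank of 77.0. Zfp984, at 57.5%, had ranks of 78.6 and 75.7. Zfp988, at 78.5%, had ranks of 2.01 and 5.58 only, and Zfp982 had a peak of rank 18.9 in replicate 2, at -430 bp from the TSS. The 12 without a promoter peak were Zfp978, Zfp979, Zfp980, Zfp981, Zfp985, Zfp986, Zfp987, Zfp989, Zfp990, Zfp991, Zfp992 and Zfp993, at repeat shares of 51.6% (Zfp985) to 97.4% (Zfp993). Zfp985, Zfp981, Zfp992 and Zfp990 lie between 51.6% and 65.6%, a range that also holds Zfp984.

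On chromosome 7 the promoters of Zfp976 and Zfp977 were 80.8% identical, and both printed sequences occur once in the genome. Zfp976 had 4 promoter peaks in each library, with best ranks of 76.3 and 83.8 at a repeat share of 54.8%. Zfp977 had none at 37.4%, so here the gene with the more repeated window was the marked one. Zfp975, the next gene, had best ranks of 86.8 and 90.8, and Zfp936, with a promoter 89.8% identical to that of Zfp977, had no peak at 43.6%.

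Zfp957 was the only gene without a promoter peak at a repeat share under 25%, with 6.94%. Its translated protein of 567 residues matched neither the finger pattern nor the KRAB patterns. It nevertheless had 11 and 7 distal peaks, the highest with ranks of 95.5 and 90.2, about 20 kb from its TSS. Zfp932 had 4 distal peaks in each library, all on chromosome 5 within 0.63 kb of each other, at repeat shares with a median of 47.1% and 48.4%.

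The median rank of the best promoter peak was lower than over all marked genes, at 91.3 in replicate 1 and 86.9 in replicate 2, against 95.7 and 94.7 over all genes with a promoter peak and 96.0 and 94.1 over the other Zfp genes. The rank was higher in replicate 1 at 28 of 37 genes, or 75.7%, against 69.2% of all genes marked in both, so this order is shared by the lists as a whole. Zfp964 ranked highest, at 99.8 and 98.8. Zfp963, its neighbour on chromosome 8, followed with 98.1 and 97.5, and then Zfp961, also on chromosome 8, with 97.0 in both. Zfp956 on chromosome 6 had 96.0 in both and Zfp930 on chromosome 8 had 97.0 and 93.0. Of these 5 genes 4 lie on chromosome 8. The lowest were Zfp988, then Zfp934 and Zfp935, then Zfp951 with 64.7 and 52.6 and Zfp947 with 73.9 and 72.1.

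Several promoters were shared between divergent or overlapping genes. Zfp934 and Zfp935 had the same best peak, with ranks of 46.7 and 46.8, and Zfp942 and Zfp943 had the same one, with 90.8 and 90.6. Zfp994, in the same run on chromosome 17, had its own, with 93.4 and 91.2 at a repeat share of 51.7%. Zfp944 shared a peak with Zfp758 and Zfp953 with Gm28044. A shared peak cannot be assigned to either gene. More than 1 promoter peak was found at 27 and 28 of the 38 marked genes, or 71.1% and 73.7%, against 61.1% and 58.5% of all marked genes. Zfp995, with 5 TSSs, had 6 in each library, Zfp984 had 6 and 3, Zfp960 had 5 and 4, Zfp944 had 5 and 3 and Zfp976 had 4 and 4. Peaks of a list can overlap, as do chr7:42642556-42642705 and chr7:42642576-42642725 at Zfp976, so these are not numbers of separate sites. The best peak lay within 150 bp of a TSS in both libraries at 29 of the 37 genes marked in both, or 78.4%, against 76.6% of all genes marked in both.

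Clustered and isolated genes were compared next. A gene was called clustered when it lay in a run of 3 or more Zfp genes with gaps of at most 200 kb. By this rule 43 genes were clustered and 20 isolated. A promoter peak in both libraries was present at 27 of 43 clustered genes, or 62.8%, and at 10 of 20 isolated genes, or 50%. In each library alone the shares were 62.8% and 65.1% of clustered genes and 55.0% and 50% of isolated ones, a mean of 64.0% ± 1.64 (SD, n = 2) against 52.5% ± 3.54 (SD, n = 2). This order depended on how clusters were drawn. Zinc finger genes with Gm symbols do not count towards a run. Without them, gaps over 200 kb leave 7 genes of distal chromosome 2 in no run of 3, and therefore isolated. Clusters drawn from all genes of 3 or more fingers took in these 7, Zfp932 and Zfp934. They left out Zfp972, Zfp981, Zfp992 and Zfp993. With these clusters, 28 of 48 clustered genes (58.3%) and 9 of 15 isolated genes (60%) were marked in both. Outside the loci of distal chromosomes 2 and 4 the counts were 23 of 24 clustered and 10 of 13 isolated genes. Among the other Zfp genes, 147 of 157 clustered and 160 of 171 isolated genes were marked in both, or 93.6% in each class.

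Counts are given by run, since runs hold few genes each. In the run from Zfp948 to Zfp946 on chromosome 17, 9 of 9 were marked, together with 9 of 9 other Zfp genes in it. In the runs from Zfp990 to Zfp987 and from Zfp992 to Zfp993 on chromosome 4, 0 of 4 and 0 of 3 were marked. In the run from Zfp989 to Zfp933, 3 of 9 were marked, and in that from Zfp972 to Zfp931 on chromosome 2, 1 of 3. Runs in which 1 gene of the series stands among other Zfp genes were marked throughout at that gene, namely Zfp937, Zfp938, Zfp940, Zfp952, Zfp953, Zfp954, Zfp956, Zfp959, Zfp961 and Zfp974. Zfp953 stands in a run of 23 Zfp genes on chromosome 13, in which the other 22 were also marked. Among the isolated genes outside distal chromosome 2, Zfp930, Zfp934, Zfp935, Zfp941, Zfp945, Zfp949, Zfp950, Zfp951, Zfp958 and Zfp960 were marked, and Zfp932, Zfp936 and Zfp957 were not.

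The word CCAATCA was the most frequent of 8 searched on both strands of the RefSeq promoters, which run from 250 bases before to 50 after the gene start. Promoters were at hand for 53 of the 63 genes, 60 sequences in all. The word occurred in 34 of the 60, or 56.7%, against 8.96% of 20150 promoters of protein-coding genes and 14.2% of 332 promoters of other Zfp genes. All 35 matches were on the strand of the gene, and 29 began within 120 bases before the gene start, with a median position of -70. Among the other Zfp genes 44 of 53 matches, or 83.0%, were on that strand, with a median position of -63, and 40 of them began within 120 bases before the start. Over all promoters 49.7% of matches were on the strand of the gene. The word was present in all 9 sequences of distal chromosome 2 and all 4 of chromosome 7, in 18 of 25 elsewhere, in 2 of 12 at distal chromosome 4 and in 1 of 10 at proximal chromosome 17. It was found in 20 of 38 promoters with a peak in both libraries and in 14 of 22 without, and since many of these sequences are near copies they are not independent. Best promoter peaks held it at 11 of 38 and 10 of 38 genes, or 28.9% and 26.3%, against 7.94% and 7.72% over all genes.

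**Figure D3:**
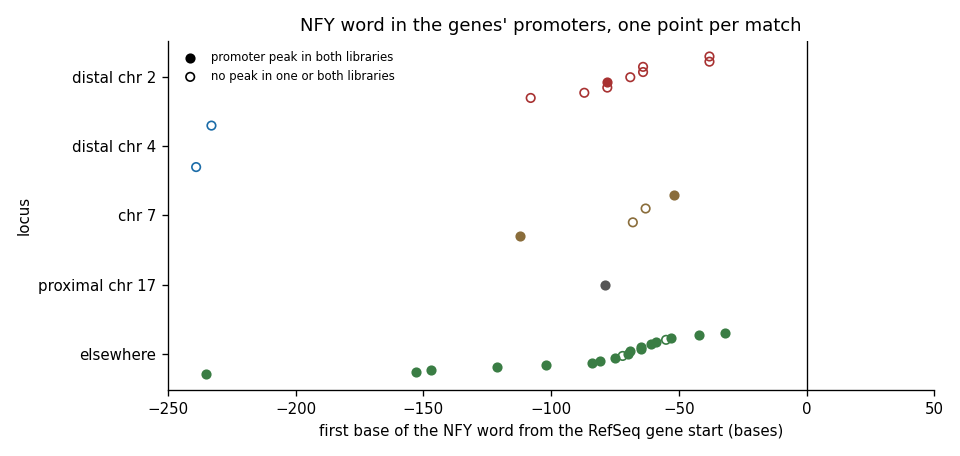
Position of the first base of the NFY word relative to the RefSeq gene start (horizontal axis, in bases) for each of 35 matches, by locus (vertical axis), filled where the gene has a promoter peak in both libraries. Most points lie within 120 bases before the start, in filled and open circles alike, while the 2 matches of distal chromosome 4 lie far upstream.

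The other words were rare. The ETS word CCGGAAGT occurred in 4 of the 60 sequences, or 6.67% against 5.35% of all, at Zfp938, Zfp945 and Zfp974. The SP word GGGGCGGGG occurred in 1, or 1.67% against 15.8%, at Zfp974. The CREB word TGACGTCA occurred in 1, or 1.67% against 2.31%, at Zfp953, and the ZNF143 word ACTACAATT in 1, or 1.67% against 0.531%, at Zfp933. The NRF1 word CGCATGCGC, the YY1 word AAGATGGCG and the ZBTB33 word TCTCGCGAG occurred in 0, against 2.45%, 1.93% and 0.978% of all promoters. The word CTGCCAGTCAGA occurred in promoters of 16 genes, 9 at distal chromosome 2, 4 on chromosome 7 and 3 elsewhere, namely Zfp932, Zfp950 and Zfp951. It was present in 0.223% of all promoters, those of the series among them, and in 2 of 332 of other Zfp genes. Because the word was picked for its frequency in the series, these shares are no independent comparison. Of the 16 genes 5 had a promoter peak in both libraries and 11 did not.

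The promoter windows also had few CpG dinucleotides. The ratio of observed to expected CpG had a median of 0.35 and the GC content a median of 47.5%, against 0.43 and 51.3% over all genes and 0.50 and 51.4% over the other Zfp genes. The median ratio was 0.41 in genes marked in both libraries and 0.26 in genes marked in neither. Over all protein-coding genes these medians were 0.53 and 0.17, so this order is not particular to the series. Within the series the median ratio also differed by locus. It was 0.21 at distal chromosome 4, 0.35 at distal chromosome 2 and 0.42 at proximal chromosome 17.

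Distal peaks have their centre over 1 kb away from all protein-coding TSSs and were counted for the gene whose TSS is nearest. They numbered 201 in replicate 1 and 217 in replicate 2. This is 3.32 ± 0.18 per gene (SD, n = 2 libraries), against 6.27 ± 1.35 over all genes and 6.16 ± 1.12 over the other Zfp genes. Territory is the genome nearer to the TSSs of a gene than to those of any other. Per 100 kb of territory the values were 3.63 and 3.91. They were 5.81 and 4.28 over all genes and 7.64 and 5.91 over the other Zfp genes. The distal peaks of the series had a median rank of 26.6 and 11.3, against 43.7 and 42.2 over all distal peaks. Their median repeat share was 19.0% and 37.2%, against 0% and 0%. Without the loci of distal chromosomes 2 and 4 the median rank was 24.4 and 27.96 and the median repeat share 2.07% and 0.826%. Of all 201 and 217 peaks 83.6% and 87.1% lay outside the bodies of protein-coding genes, against 53.7% and 53.4% of all distal peaks. For the other Zfp genes these shares were 69.9% and 70.4%. Bodies of noncoding genes and pseudogenes were not considered.

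The libraries differed most in number at distal chromosome 4. Its 16 genes had 61 distal peaks in replicate 1 and 134 in replicate 2, or 3.31 and 7.27 per 100 kb, although replicate 2 had fewer distal peaks over the genome, 116587 against 158443. More were found in replicate 2 at 11 of the 16 genes and in replicate 1 at 3. Outside the loci of distal chromosomes 2 and 4 the order was the opposite, with 138 and 81. Zfp993 had 2 and 21, and its 21 peaks in replicate 2 lay within 19.9 kb and had a median rank of 0.46. Zfp988 had 7 and 33, Zfp978 had 4 and 22, and Zfp991 had 28 and 18.

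Most peaks of replicate 2 at this locus lay in no peak of replicate 1, and these were low in rank. Of its 134 peaks, 42 lay in a peak of replicate 1, with a median rank of 52.6 and a median repeat share of 40.5%. The other 92 had a median rank of 2.84 and a median repeat share of 50.4%. In replicate 1, 46 of 61 lay in a peak of replicate 2, with a median rank of 46.7 and a median repeat share of 38.8%. The other 15 had a median rank of 3.66 and a median repeat share of 40.5%. The shares found in the other library were thus 75.4% in replicate 1 and 31.3% in replicate 2, against 47.9% and 66.4% of all distal peaks. Neighbouring peaks were close together, with a median of 320 bp between centres in replicate 1 and 460 bp in replicate 2. The part of repeated sequence in the difference between libraries was not tested. The highest distal peak of the locus was the same in both, near Zfp991 at chr4:147125016-147125165 with ranks of 94.8 and 93.9 and a repeat share of 9.09%. A TSS of the pseudogene Gm13162 lay within 500 bp of it.

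**Figure D4:**
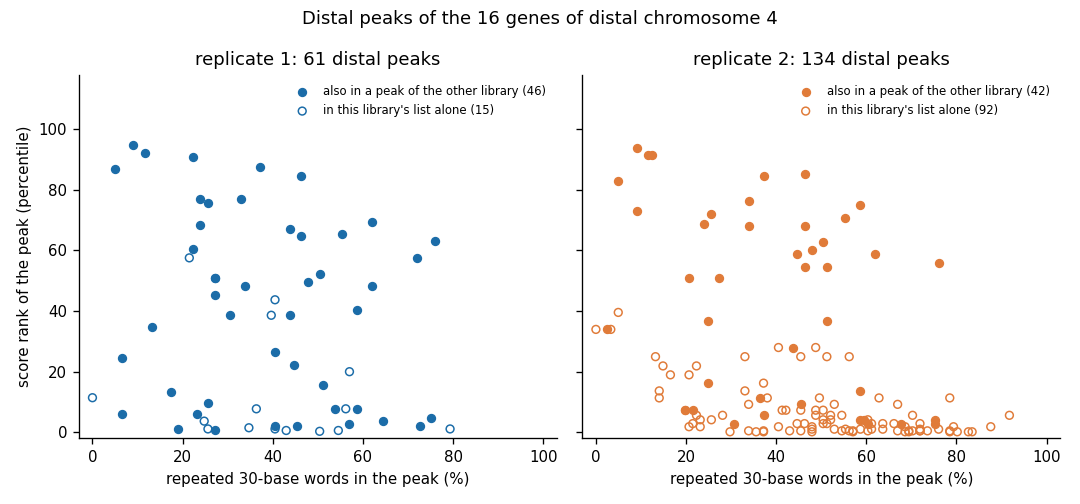
Score rank (percentile, vertical axis) and share of repeated 30-base words (in %, horizontal axis) of each distal peak of the 16 genes of distal chromosome 4, for replicate 1 (left) and replicate 2 (right), filled where the peak lies in a peak of the other library. The 92 open circles of replicate 2 lie at low ranks, and the filled circles spread over the ranks in both panels.

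The 10 genes of distal chromosome 2 had almost no distal peaks. They had 2 in each library over a territory of 533 kb, or 0.38 per 100 kb. All 4 were nearest to Zfp931 and in a peak of the other library. This territory is part of a locus of 2.71 Mb, in which peaks nearest to other genes were not counted here. As at the promoters, closed chromatin and reads that could not be placed cannot be told apart. Proximal chromosome 17 had 21 and 15 and the 4 genes of chromosome 7 had 1 and 3. No distal peak was assigned in either library to 20 genes, which were Zfp933, Zfp935, Zfp937, Zfp940, Zfp942, Zfp953, Zfp959, Zfp964, Zfp965, Zfp966, Zfp967, Zfp968, Zfp969, Zfp970, Zfp971, Zfp972, Zfp973, Zfp975, Zfp977 and Zfp995. Zfp964, the highest-ranking promoter, is among them.

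**Figure D5:**
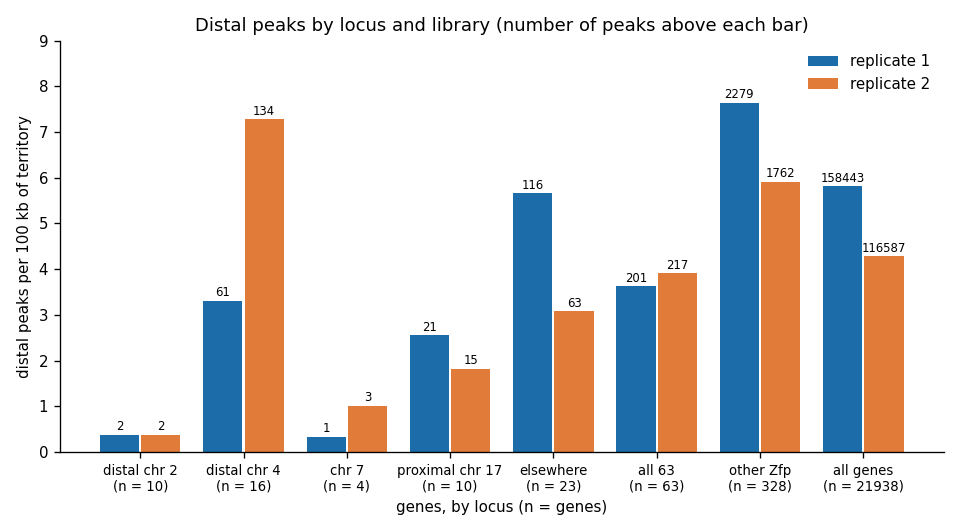
Distal peaks per 100 kb of territory (vertical axis, bars from 0) in replicate 1 and replicate 2 for the genes of each locus, for all 63, for the other Zfp genes and for all protein-coding genes (horizontal axis), with the number of peaks above each bar. The largest absolute difference is at distal chromosome 4, with 7.27 in replicate 2 against 3.31 in replicate 1, and the few peaks of chromosome 7, 1 and 3, are also more in replicate 2.

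By the mean of both libraries the 5 genes with the most distal peaks were Zfp991, Zfp960, Zfp988, Zfp978 and Zfp993. Of these only Zfp960 lies outside distal chromosome 4, an isolated gene on chromosome 17 with 28 and 13 in a territory of 645 kb. Zfp950 on chromosome 19 had 12 and 10, of which 7 and 7 were in a peak of the other library. Zfp958 on chromosome 8 had 13 and 7. The strongest distal peak of all 63 genes was nearest to Zfp958, at chr8:4677376-4677525, 51610 bp from its TSS, with ranks of 98.4 and 98.6. The next gene by rank was Zfp949, with a peak of 97.8 and 96.2 near the start of the noncoding gene Snhg5. A TSS of a noncoding gene or pseudogene lay within 500 bp of 39 of 201 and 34 of 217 distal peaks, or 19.4% and 15.7%, against 3.03% and 3.56% of all distal peaks. Of these 28 and 27 were at pseudogenes, and nearly all of those belonged to genes of distal chromosome 4. Several peaks often lay at the same pseudogene, as did all 5 of each library at Zfp990. Clustered genes had 3.03 and 4.88 distal peaks per 100 kb and isolated genes 4.46 and 2.56, so the order of the 2 classes was reversed between the libraries. The mean of both libraries was 3.95 for clustered and 3.51 for isolated genes, and this order turned with gaps of 100 kb (2.71 against 4.42) and 500 kb (3.52 against 4.44) and with clusters drawn from genes of 3 or more fingers (3.63 against 3.97). Outside the loci of distal chromosomes 2 and 4 the means were 2.26 ± 0.73 for clustered and 4.24 ± 1.63 for isolated genes (SD, n = 2 libraries). The other Zfp genes had the same order, with 4.71 ± 0.14 for clustered and 7.28 ± 1.49 for isolated genes (SD, n = 2 libraries).

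A chosen list of genes of silencing by KRAB zinc finger proteins was marked throughout. It includes Zfp57 and Zfp809, which are zinc finger genes themselves and belong to the other Zfp genes. Both libraries had a promoter peak at 21 of 21 listed genes, against 67.6% of all protein-coding genes. Their median best ranks were 97.8 and 97.2, against 95.7 and 94.7 over all genes with a promoter peak. Trim28, the corepressor that binds the KRAB domain, had ranks of 97.8 and 98.8. Setdb1, which methylates histone H3 at lysine 9, had 98.1 and 95.4, and Cbx5, which encodes the heterochromatin protein HP1 alpha, had 98.9 and 99.2. Zfp57, which guards imprinted loci, had 92.0 and 92.2, and Zfp809, which silences murine leukaemia viruses, had 95.0 and 93.4.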

How the data were processed

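DNase-seq peaks and hotspots of 2 libraries were used as the authors deposited them, called per library on mm10 per the deposited notes. The sources used here do not name the caller, its threshold, the read length or how repeated reads were handled. Each peak carries a score that the authors deposited, a whole number of at most 150, used only to rank peaks within a list. Each hotspot carries a −log10 q-value as deposited by the authors. Depth is unknown, since the files hold no read counts. Repeated rows, 45 and 22, were removed.

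TSSs were 93513 positions of all transcripts of protein-coding genes in GENCODE vM21 (the mitochondrial genome excluded) on GRCm38.p6, whose main chromosomes have the lengths of mm10. Promoter, distal, territory and cluster rules are given with the results and were checked on made-up positions with known answers. Fingers were counted as C, 2 to 4 residues, C, 12 residues, H, 3 to 5 residues, H, in coding sequences translated from the genome. The KRAB pattern first chosen matched 24 of 63 proteins, and a looser one chosen after seeing them matched 59. Promoter identity is identical columns over all columns of a global alignment (Biopython 1.88), and Python 3.11.15 with numpy 2.4.6 and pandas 2.3.3 was used throughout.

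The genes, lists and rules were chosen with earlier results of these data known, and the loci after the positions of the genes were seen. Genes named are those without a promoter peak in both libraries, the 5 highest and 5 lowest by rank, the 5 with most distal peaks, those with none, the 5 with most promoter peaks, the ends of each cluster, the first 12 isolated genes by symbol and those with a repeat share over 50%. Alternatives are described in the closing section.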

Additional observations from a re-analysis of the deposited data

How the results depend on the processing

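Values were recomputed under other windows, filters, TSS sets and cluster rules, of which the protein-based clusters, the protein-coding transcripts and the exclusion of distal chromosomes 2 and 4 were chosen after seeing the data. The 37 of 63 genes marked in both libraries numbered 34 to 37 under the other windows, filters and TSS sets, 38 in each library alone, and 33 of 37 without those loci, and 58 of 63 genes kept their status among the higher-scoring 50% of peaks, where Zfp934, Zfp935, Zfp970, Zfp982 and Zfp988 did not. The share of clustered genes marked in both (62.8%) was 60.5% among the higher-scoring 50% of peaks and with equal numbers of peaks, 72.7% and 58.5% with gaps of 100 and 500 kb, 58.3% with protein-based clusters, 95.8% without distal chromosomes 2 and 4, and 62.8% to 65.1% in single libraries. The share of isolated genes (50%) was 40% among the higher-scoring 50% of peaks, 45.0% from the outermost 5′ end, 43.3% and 60% with gaps of 100 and 500 kb, 60% with protein-based clusters, 76.9% without those loci, and 50% to 55.0% in single libraries. Which class had the larger share therefore turned with gaps of 500 kb and with protein-based clusters. The median best rank of 89.1, as the mean of both libraries, was 55.9 over promoter peaks only and 86.9 to 91.3 in single libraries. Distal peaks per gene (3.32) were 2.94 beyond 5 kb, 2.45 within 50 kb, 0.889 among the higher-scoring 50%, 2.58 with equal numbers, 3.13 from hotspots, 3.50 with protein-coding transcripts, 2.96 without those loci and 3.19 to 3.44 in single libraries. Distal peaks per 100 kb of clustered genes (3.95) were 0.942 among the higher-scoring 50%, 2.26 without those loci and 3.03 to 4.88 in single libraries, and those of isolated genes (3.51) were 1.11 among the higher-scoring 50% and 2.56 to 4.46 in single libraries. The order of these 2 values turned with both other gaps, with protein-based clusters, among the higher-scoring 50% and without those loci. A cluster rule from the RefSeq protein table was not run as written, and translated coding sequences took its place. No paired analysis was possible because there is 1 group.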
